A study of Homo sapiens with 10 samples.

Results

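The 8 genes described here encode the human DNA topoisomerases TOP1, TOP1MT, TOP2A, TOP2B, TOP3A and TOP3B and the tyrosyl-DNA phosphodiesterases TDP1 and TDP2. They were taken from the table by gene symbol for their function, by a list drawn up with earlier results of these data known. They are 8 of the 18144 genes in the expression table, and all 8 were among the 14731 genes that passed a filter on low values (at least 0.565 CPM, the reads of a gene per 1000000 reads, in at least 2 libraries).

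Bulk RNA was sequenced from 3D spheroids of PC-3, an established human prostate cancer cell line that the labels give as wild type. Untreated spheroids (CTRL) were sampled on days 0, 3 and 7. Conventional topotecan (CON in the labels, CONV-TOPO here) was given as a bolus on day 0, and extended-exposure topotecan (EE, with the treatment label METRO, EE-TOPO here) as daily fractions, and both were sampled on days 3 and 7. Each treatment and day is 1 library, so 7 libraries of 1 cell line were compared, and whether the spheroids of a library were pooled is not given in the sources used here. Of the 10 libraries labelled, 3 belong to day 1 and were not analysed here. The labels run to day 7, whereas the series text speaks of weeks of exposure, and days are used as labelled.

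Topoisomerases cut DNA, let strands pass or rotate and reseal the cut, with the enzyme held on the DNA end through a tyrosine while the break is open. TOP1 nicks a single strand ahead of RNA and DNA polymerases, TOP1MT does so on mitochondrial DNA, TOP2A and TOP2B pass a duplex through a cut of both strands, and TOP3A and TOP3B act on single strands of DNA or, for TOP3B, also of RNA. Topotecan is a camptothecin that traps TOP1 on its nick. TDP1 hydrolyses the bond between TOP1 and the 3′ DNA end, and TDP2 hydrolyses that between TOP2 and the 5′ end, so the phosphodiesterases undo what trapped topoisomerases leave behind. TOP2A is known as a gene of cycling cells and TOP2B as its counterpart in cycling and resting cells alike.

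The bases before the starts of TOP1 and TOP2A are shown because TOP1 is the target of topotecan and TOP2A had the widest range of levels of the 8 genes. Both are RefSeq windows on GRCh38.p14 that end at the base before the gene, printed 5′ to 3′ on the strand of the gene, with CCAAT boxes (CCAAT, read on either strand) and cell cycle homology regions (CHR, TTTGAA on either strand) in capitals. TOP1 lies on the plus strand (chr20:41028572-41028821) and TOP2A on the minus strand (chr17:40417897-40418146).
TOP1: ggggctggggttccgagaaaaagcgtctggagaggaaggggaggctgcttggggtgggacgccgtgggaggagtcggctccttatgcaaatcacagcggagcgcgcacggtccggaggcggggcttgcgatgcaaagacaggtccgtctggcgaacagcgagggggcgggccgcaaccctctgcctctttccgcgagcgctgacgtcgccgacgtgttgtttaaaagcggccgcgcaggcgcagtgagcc
TOP2A: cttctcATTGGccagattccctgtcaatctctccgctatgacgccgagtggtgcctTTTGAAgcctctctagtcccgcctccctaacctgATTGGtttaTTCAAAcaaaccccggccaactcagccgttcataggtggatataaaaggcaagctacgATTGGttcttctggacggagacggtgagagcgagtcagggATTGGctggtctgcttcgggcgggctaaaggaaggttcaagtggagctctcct

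The TOP2A window held 4 CCAAT boxes, all on the reverse strand, beginning at positions -244, -160, -93 and -53 from the gene start, and 2 CHR matches at -194 and -151. The TOP1 window held neither motif. Over all 35116 RefSeq windows of the same 250 bases, 32.0% held at least 1 CCAAT box and 13.3% at least 1 CHR. Of the 8 genes, 7 had a window in the reference table, all but TOP1MT, and the only other match to either motif was 1 CHR before TDP1, at -30. A GC box (GGGCGG on either strand, in 42.6% of all windows) was found in 5 of the 7, all but TOP3B and TDP1. The CCAAT box and the CHR are letters known from promoters of genes of the dividing cell, and a match here describes the sequence, not binding.

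Depth, estimated from the step that 1 read makes in the CPM values, was 15030000 to 22480000 reads per library, and the 8 genes were read against it with 95% intervals that cover counting error only. Levels are CPM divided by a scaling factor (TMM, a trimmed mean of log ratios between libraries), and the log2 differences are of scaled CPM + 1. The cells expressed the epithelial genes KRT8 (624 to 1169 CPM), KRT18 (474 to 864) and EPCAM (149 to 195), while PTPRC, VWF, PDGFRB and CD14 of leukocytes, endothelium, fibroblasts and monocytes stayed at or below 0.489, 0.158, 0.532 and 1.06 CPM. Other markers of endothelium and fibroblasts on the fixed list were present, with PECAM1 at 16.8 to 32.7, COL1A1 at 46.6 to 83.0, and COL3A1 at 3.26 to 16.0 CPM. KLK3, CD3E and CDH5 were not analysed here.

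On day 7 the mRNAs of TOP1, TOP2A and TOP2B were lower under both topotecan regimens than in the untreated spheroids, while those of TDP1, TDP2, TOP3A and TOP3B lay within 1.3-fold of untreated. TOP1MT was in neither group, at 0.761 of untreated under EE-TOPO and 0.999 under CONV-TOPO. With a trend on gene structure removed, described below, the day-7 log2 ratios of TOP1MT and TOP3B were below those of TOP1 and TOP2B under both regimens. On day 3 no gene of the 8 was lower by 1.5-fold under either regimen, and TOP2A alone was higher, under EE-TOPO. A ratio of at least 1.5-fold in either direction between 2 libraries, with no test behind it, is what is counted below. On day 7 of CONV-TOPO 3 of the 8 genes were lower (TOP1, TOP2A and TOP2B) and 0 higher, against 22.6% lower and 18.9% higher over all 14731 genes. On day 7 of EE-TOPO 2 were lower (TOP2A and TOP2B) and 0 higher, against 23.3% and 20.1%. With more than 1 in 5 of all genes lower on that day, counts of 2 and 3 among 8 are near the background and say nothing particular about these genes. In bulk RNA, fewer cells of a kind and less RNA per cell cannot be told apart.

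**Figure D1:**
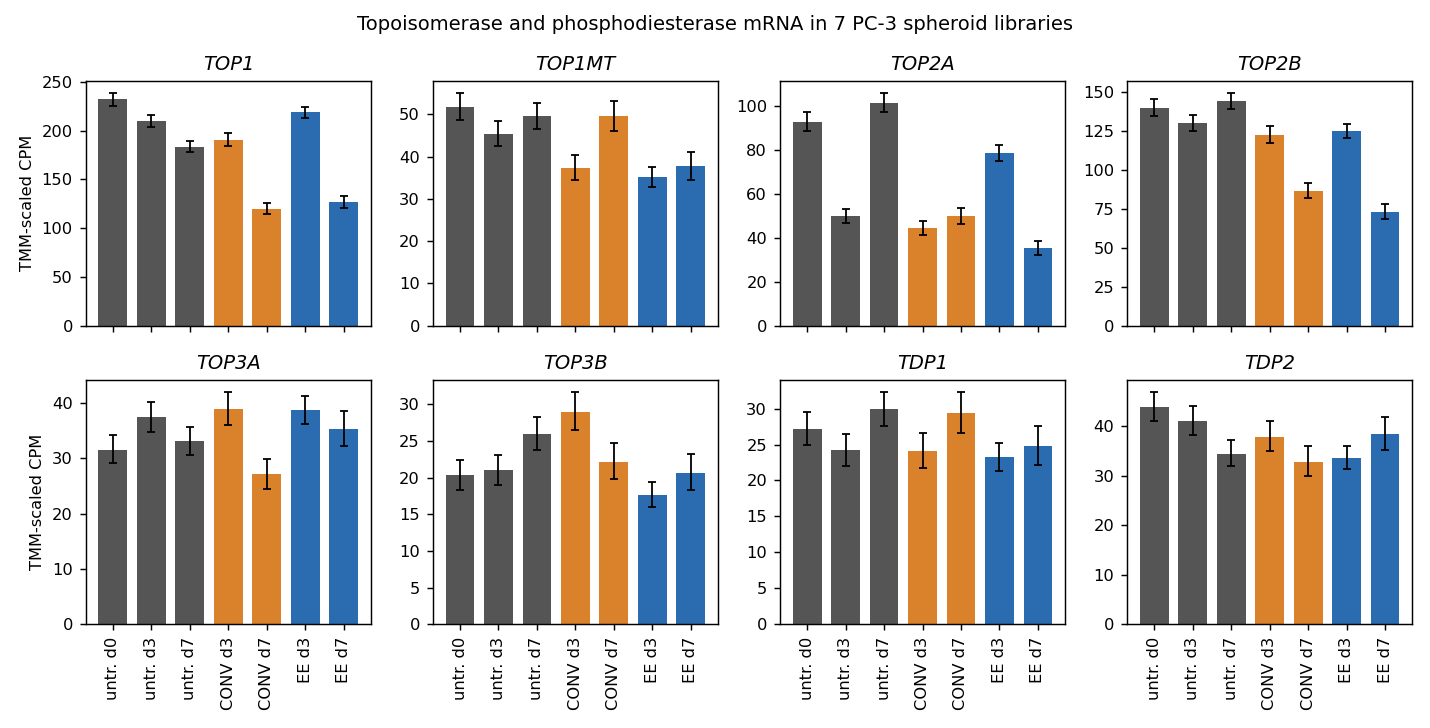
TMM-scaled CPM of each gene (vertical axes, starting at 0 and scaled gene by gene) in the 7 libraries, with 95% Poisson intervals of the estimated reads; grey, untreated; orange, CONV-TOPO; blue, EE-TOPO. The day-7 bars of TOP1 and TOP2B under both regimens stand below the other 5 libraries, TOP2A has its highest bars in untreated days 0 and 7, and the TDP1 bars lie between 23.2 and 29.9.

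TOP1, the target of topotecan (chr20:41028822-41124487 on hg38, plus strand, 21 exons), had 232.0, 209.8 and 183.5 scaled CPM in untreated spheroids on days 0, 3 and 7. It had 190.7 and 119.9 under CONV-TOPO and 218.7 and 126.3 under EE-TOPO on days 3 and 7. Both day-7 treated libraries lay below all 5 others, while the day-3 treated libraries lay inside the untreated range. On day 7 the ratio to untreated was 0.654 under CONV-TOPO (95% counting interval 0.617 to 0.692) and 0.688 under EE-TOPO (0.650 to 0.729). On day 3 it was 0.909 (0.867 to 0.952) and 1.04 (1.00 to 1.09). The regimens were closer to each other than to untreated on day 7, at a ratio of EE-TOPO to CONV-TOPO of 1.05 (0.985 to 1.13), which counting error alone could give, and stood at 1.15 (1.10 to 1.20) on day 3. Without drug TOP1 was also lower on day 7 than on day 0, at 0.791 (0.757 to 0.826).

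The TOP1 values carry 2 annotation limits. A processed copy, TOP1P1 (chr1:171338896-171341325, inside FMO4 and on its strand), aligned to bases 1882 to 3734 of the TOP1 transcript with 97.0% identity and a longest identical run of 174 bases, longer than the 150-base reads, so some reads could belong to either. TOP1P1 was listed at 2.57% to 4.33% of the TOP1 CPM. PLCG1-AS1 overlaps TOP1 by 26494 bases on the opposite strand, at a mean of 0.112 scaled CPM, and the kit does not mark strand. TOP2B shares 28 bases with RARB on the opposite strand, and the remaining 6 genes overlapped no listed gene.

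TOP1MT, which serves mitochondrial DNA, did not follow TOP1 in scaled CPM. It had 51.9, 45.5 and 49.6 scaled CPM in untreated spheroids on days 0, 3 and 7, 37.3 and 49.5 under CONV-TOPO, and 35.2 and 37.7 under EE-TOPO on days 3 and 7. The day-7 CONV-TOPO library was thus inside the untreated range and the other 3 treated libraries below it. The ratio to untreated was 0.820 (0.738 to 0.910) and 0.999 (0.906 to 1.10) under CONV-TOPO on days 3 and 7, and 0.774 (0.704 to 0.851) and 0.761 (0.683 to 0.848) under EE-TOPO. On day 7 EE-TOPO was at 0.762 (0.679 to 0.855) of CONV-TOPO. TOP1MT (14 exons, chr8:143309326-143359978, minus strand) reached 1.5-fold in none of the 9 comparisons of 2 libraries.

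Per kilobase of transcript TOP1 was the more abundant of the pair in every library, and its lead over TOP1MT was narrowest on day 7 of CONV-TOPO. The ratio of TOP1 to TOP1MT reads per kilobase, which needs no scaling between libraries, was 2.33, 2.40 and 1.92 in untreated days 0, 3 and 7. It was 2.66 and 1.26 under CONV-TOPO and 3.23 and 1.74 under EE-TOPO on days 3 and 7. Both day-3 treated libraries were above the untreated range and both day-7 treated libraries below it. However, the EE-TOPO day-7 interval (1.58 to 1.92) overlapped that of untreated day 7 (1.79 to 2.07). The CONV-TOPO day-3 interval (2.44 to 2.91) likewise overlapped that of untreated day 3 (2.23 to 2.58). The pair ratio still carries any trend on gene structure, described below, as the transcripts have 3734 and 1942 bases. Less that trend, the day-7 log2 ratio to untreated was -0.18 for TOP1 and -0.69 for TOP1MT under EE-TOPO. Under CONV-TOPO it was -0.28 and -0.32. TOP1 was then no lower than TOP1MT against untreated day 7 under either regimen.

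Of 7 genes of mitochondrial DNA maintenance, the group in which TOP1MT works, 0 were higher and 0 lower by 1.5-fold on day 7 of EE-TOPO, and 1 was higher and 1 lower on day 7 of CONV-TOPO, against 20.1% higher and 23.3% lower of all genes under EE-TOPO and 18.9% and 22.6% under CONV-TOPO. Their median log2 ratio was -0.29 under each regimen, against -0.05 over all genes. At the low end of the list was TFAM, which packages mitochondrial DNA and acts in its transcription (-0.54 under EE-TOPO and -0.80 under CONV-TOPO). At the high end was SSBP1, the single-strand binding protein of mitochondrial DNA (0.54 and 0.63). On day 3 none of the 7 passed 1.5-fold under either regimen. Of all genes 7.18% were higher and 4.43% lower under EE-TOPO on that day, and 4.17% and 2.85% under CONV-TOPO.

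TOP2A, the topoisomerase of cycling cells (chr17:40388525-40417897, minus strand, 35 exons), varied more than any other of the 8 genes, 2.87-fold between its highest and lowest library. It had 92.9, 49.9 and 101.7 scaled CPM in untreated spheroids on days 0, 3 and 7, 44.3 and 50.0 under CONV-TOPO and 78.7 and 35.4 under EE-TOPO on days 3 and 7. The untreated day-3 library stood with the CONV-TOPO libraries and not with the other 2 untreated ones, so the untreated range spans most of the treated values and only EE-TOPO day 7 and CONV-TOPO day 3 fell below it. Untreated day 3 was at 0.537 of day 0 (0.496 to 0.580), and untreated day 7 at 2.04 times day 3 (1.89 to 2.20). TOP2A was 1 of the 8 genes lower and 0 were higher from day 0 to day 3, against 3.04% and 6.06% of all genes, and it was 1 higher and 0 lower from day 3 to day 7, against 5.41% and 4.25%. From day 0 to day 7, 0 of the 8 genes passed 1.5-fold, against 2.12% lower and 6.45% higher.

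Against untreated spheroids of the same day, TOP2A was at 0.348 under EE-TOPO (0.314 to 0.385) and 0.491 under CONV-TOPO (0.451 to 0.535) on day 7. On day 3 it was at 1.58 under EE-TOPO (1.46 to 1.70), making 1 of the 8 genes higher and 0 lower against 7.18% and 4.43% of all genes, and at 0.888 under CONV-TOPO (0.806 to 0.979). Under CONV-TOPO on day 3, 0 of the 8 genes were higher and 0 lower, against 4.17% and 2.85%. The higher value rests on the low untreated day-3 library: against the mean of the 3 untreated libraries the log2 ratio of EE-TOPO day 3 was -0.05 in place of 0.65, and that of CONV-TOPO day 3 was -0.86 in place of -0.17.

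The regimens differed most in TOP2A, and in opposite directions on the 2 days. EE-TOPO was at 1.78 times CONV-TOPO on day 3 (1.63 to 1.94), a ratio larger than that of 99.1% of tested genes. On day 7 it was at 0.708 (0.630 to 0.796). On day 3, 1 of the 8 genes was higher (TOP2A) and 1 lower (TOP3B) under EE-TOPO than under CONV-TOPO, against 3.19% and 2.27% of all genes. On day 7, 0 were higher and 0 lower, against 5% and 4.09%. Each of these ratios is of 1 library to 1 library, and counting error is the only error they carry.

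**Figure D2:**
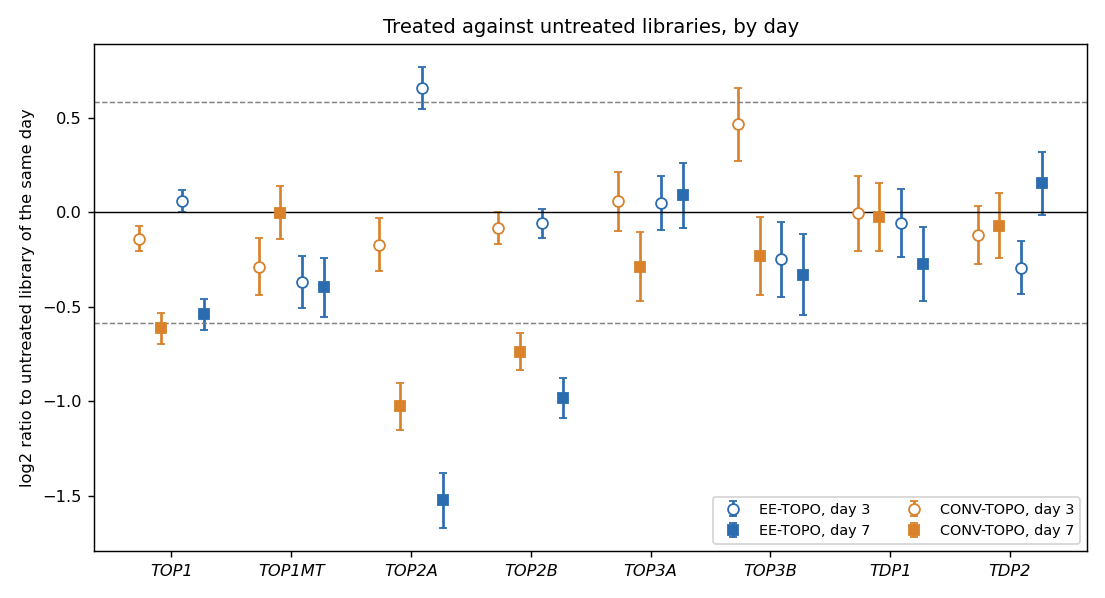
Log2 ratio of scaled CPM to the untreated library of the same day (vertical axis) for the 8 genes, with 95% counting intervals; open circles, day 3; squares, day 7; blue, EE-TOPO; orange, CONV-TOPO; dashed lines, 1.5-fold. TOP2A runs from 1.58-fold higher on day 3 of EE-TOPO to 0.348 of untreated on day 7, and the TDP1 and TDP2 points lie between the dashed lines.

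TOP2A was low in the same untreated library as most proliferation genes, and on day 7 of treatment it lay with some of them and apart from others. Of 10 proliferation genes, 7 were lower and 0 higher in untreated day 3 than day 0, against 3.04% lower and 6.06% higher of all genes. Their median log2 ratio was -0.91, near 0 over all genes. From untreated day 3 to day 7, 7 were higher and 0 lower (median 0.91), against 5.41% higher and 4.25% lower of all genes. Under EE-TOPO on day 3, 5 of the 10 were higher and 0 lower than untreated, with a median of 0.58, against 7.18% higher and 4.43% lower of all genes. The 5, named after their values were seen, were CCNB1 (0.86), PLK1 (0.85), CENPF (0.80), BUB1 (0.69) and AURKA (0.62). As for TOP2A, these values rest on the low untreated day-3 library: in EE-TOPO day 3 each of the 5 was below its level in untreated days 0 and 7. On day 7 of each regimen 4 were lower and 1 was higher, against 23.3% and 20.1% of all genes under EE-TOPO and 22.6% and 18.9% under CONV-TOPO, with medians of -0.16 under EE-TOPO and -0.06 under CONV-TOPO. The 4 lower genes were MKI67, a marker of cycling cells (-1.75 under EE-TOPO, -1.16 under CONV-TOPO), CENPF of the kinetochore (-1.69, -1.23), the checkpoint kinase BUB1 (-1.11, -0.81) and cyclin CCNA2 (-0.96, -0.66). The higher gene was the mitotic kinase AURKB (1.08, 0.91). By transcript length the 4 lower genes were the longest of the 10, and AURKB was the shortest. The day-7 values of this list carry the trend on gene structure described below, which was not removed from them. TOP2A, at -1.50 and -1.01, lay among the 4 lower genes, and CENPF was also the gene most like it over the 7 libraries (Pearson r = 0.989 of log2 values), ahead of NDC1 (0.983) and KIF23 (0.982).

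**Figure D3:**
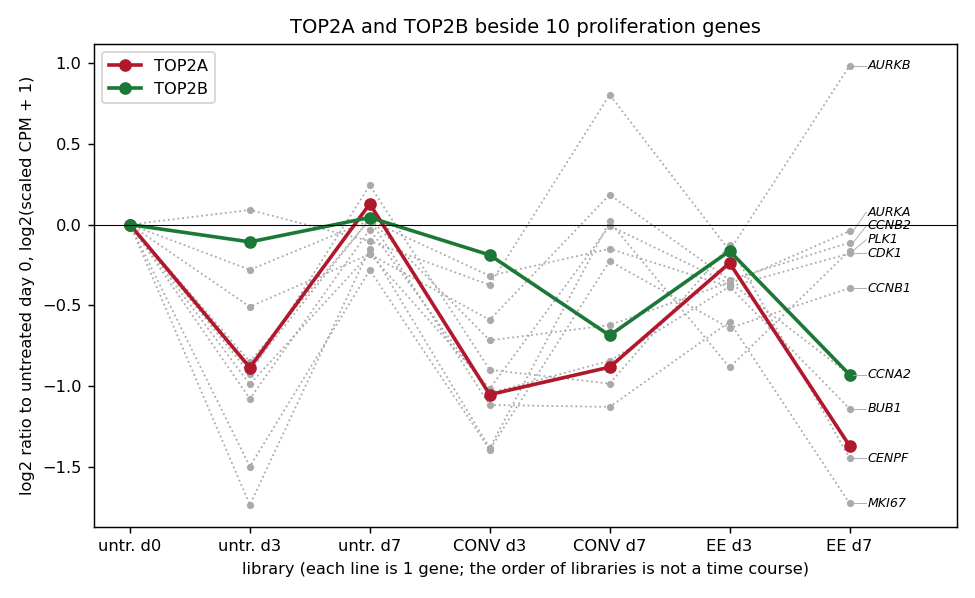
Log2 ratio of scaled CPM + 1 to untreated day 0 (vertical axis) in each of the 7 libraries for TOP2A (red), TOP2B (green) and 10 proliferation genes (grey, named at the right). TOP2A lies low in untreated day 3 with most grey genes, while on day 7 of EE-TOPO the grey genes spread from MKI67 at the bottom to AURKB at the top and TOP2A lies with CENPF.

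TOP2B, the counterpart of TOP2A that resting cells also use (chr3:25597905-25664908, minus strand, 36 exons), was steady without drug and lower on day 7 with it. It had 139.6, 129.6 and 144.0 scaled CPM in untreated spheroids on days 0, 3 and 7, 122.4 and 86.4 under CONV-TOPO and 124.6 and 72.9 under EE-TOPO on days 3 and 7. All 4 treated libraries lay below the 3 untreated ones, on day 3 by little and on day 7 clear of every other library. The ratio to untreated on day 7 was 0.506 under EE-TOPO (0.471 to 0.545) and 0.600 under CONV-TOPO (0.561 to 0.642). On day 3 it was 0.961 (0.912 to 1.01) and 0.945 (0.891 to 1.00), and counting error alone could give either. EE-TOPO was at 0.844 of CONV-TOPO on day 7 (0.775 to 0.918). The genes most like TOP2B were MAP3K7, NRDC and SNRNP200, each at r = 0.997.

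Within a library, TOP2A per kilobase was below TOP2B throughout. The ratio of TOP2A to TOP2B reads per kilobase was 0.679, 0.393 and 0.721 in untreated days 0, 3 and 7, 0.369 and 0.590 under CONV-TOPO, and 0.645 and 0.495 under EE-TOPO on days 3 and 7. Since the untreated ratio itself spans 0.393 to 0.721, 3 of the 4 treated values were inside it and CONV-TOPO day 3 (0.339 to 0.402) was below by less than its counting interval.

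TOP3A, which dissolves joined DNA molecules with the BLM helicase (chr17:18271429-18314995, minus strand, 19 exons), had 31.6, 37.4 and 33.1 scaled CPM in untreated spheroids on days 0, 3 and 7. It had 38.9 and 27.1 under CONV-TOPO and 38.7 and 35.2 under EE-TOPO. The 2 day-3 treated libraries were just above the untreated range and CONV-TOPO day 7 below it. On day 7 the ratio to untreated was 0.820 under CONV-TOPO (0.722 to 0.930) and 1.07 under EE-TOPO (0.945 to 1.20), and EE-TOPO stood at 1.30 times CONV-TOPO (1.13 to 1.49).

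TOP3B, which acts on RNA and DNA with TDRD3 (chr22:21957025-21982788, minus strand, 18 exons), was the lowest of the 8 in scaled CPM on average. It had 20.3, 21.0 and 26.0 in untreated spheroids on days 0, 3 and 7, 29.0 and 22.2 under CONV-TOPO, and 17.7 and 20.7 under EE-TOPO. CONV-TOPO day 3 was above the untreated range, EE-TOPO day 3 below it, and both day-7 libraries inside it. The ratio to untreated was 1.38 under CONV-TOPO (1.21 to 1.58) and 0.842 under EE-TOPO (0.734 to 0.965) on day 3, and 0.853 (0.740 to 0.982) and 0.796 (0.686 to 0.923) on day 7. EE-TOPO day 3 was at 0.609 of CONV-TOPO day 3 (0.533 to 0.695), a ratio below that of all but 1.28% of tested genes.

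The 5 partner genes of the TOP3 enzymes were mixed on day 7. Under EE-TOPO 1 was higher and 1 lower, and under CONV-TOPO 1 was higher and 0 lower, with medians of -0.12 and -0.30. Over all genes 20.1% were higher and 23.3% lower under EE-TOPO and 18.9% and 22.6% under CONV-TOPO, so these counts are near the background. The gene higher under both was RMI2, a subunit of the complex of TOP3A and BLM, at 16.7 scaled CPM under CONV-TOPO and 19.1 under EE-TOPO on day 7 against 7.54 in untreated spheroids (log2 ratios 1.05 and 1.24). Its day-3 levels of 8.89 and 7.22 were below the 10.5 of untreated day 3. The gene lower under EE-TOPO, named after its value was seen, was RMI1 of the same complex (-0.65).

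TDP1, which clears TOP1 from DNA (chr14:89955927-90044765, plus strand, 17 exons), varied least of the 8 genes, 1.29-fold between its highest and lowest library. It had 27.2, 24.2 and 29.9 scaled CPM in untreated spheroids on days 0, 3 and 7. Under CONV-TOPO it had 24.1 and 29.4, and under EE-TOPO 23.2 and 24.7. Of the 4 treated libraries, 2 were inside the untreated range and both day-3 libraries just below it. The ratio to untreated was 0.996 (0.869 to 1.14) and 0.984 (0.867 to 1.12) under CONV-TOPO on days 3 and 7, and 0.961 (0.850 to 1.09) and 0.828 (0.723 to 0.949) under EE-TOPO. Only the last of these was outside counting error.

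The level of TOP1 relative to TDP1, the enzyme and the one that removes it, was lower on day 7 in treated spheroids. The ratio of TOP1 to TDP1 reads per kilobase was 8.51, 8.65 and 6.12 in untreated days 0, 3 and 7, with the day-7 interval from 5.62 to 6.69. It was 7.89 and 4.07 (3.66 to 4.53 on day 7) under CONV-TOPO and 9.38 and 5.09 (4.52 to 5.74) under EE-TOPO on days 3 and 7. Both day-7 treated values were below every untreated value, and the EE-TOPO interval overlapped that of untreated day 7 while the CONV-TOPO interval did not.

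**Figure D4:**
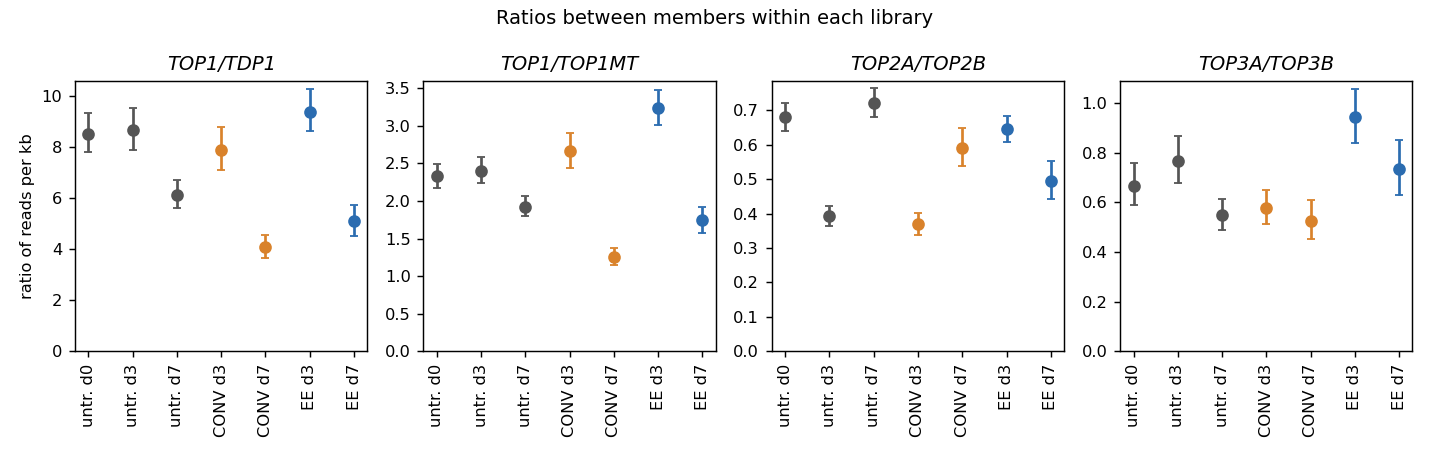
Ratios of reads per kilobase of transcript between 2 genes of the same library (vertical axes, starting at 0) with 95% counting intervals; grey, untreated; orange, CONV-TOPO; blue, EE-TOPO. TOP1 to TDP1 and TOP1 to TOP1MT are lowest on day 7 of CONV-TOPO, at 4.07 and 1.26, and TOP2A to TOP2B is lowest on day 3 of CONV-TOPO and of untreated spheroids, at 0.369 and 0.393.

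TDP2, which clears TOP2 (chr6:24649979-24666900, minus strand, 7 exons), had 44.01, 41.1 and 34.5 scaled CPM in untreated spheroids on days 0, 3 and 7, 37.9 and 32.9 under CONV-TOPO and 33.6 and 38.4 under EE-TOPO. The untreated levels themselves were ordered by day, with day 7 at 0.784 of day 0 (0.709 to 0.868), and the treated levels lay inside or just under their range. The ratio to untreated was 0.922 (0.829 to 1.03) and 0.953 (0.846 to 1.07) under CONV-TOPO on days 3 and 7, and 0.817 (0.740 to 0.901) and 1.11 (0.991 to 1.25) under EE-TOPO. EE-TOPO was at 0.886 of CONV-TOPO on day 3 (0.797 to 0.985) and at 1.17 on day 7 (1.03 to 1.33).

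The genes that act beside the phosphodiesterases were also counted on day 7. Over all tested genes 23.3% were lower and 20.1% higher on that day under EE-TOPO, and 22.6% and 18.9% under CONV-TOPO, and these shares are the background of each count. Of 8 partners of TDP1 in single-strand break repair, 1 was lower and 0 higher under EE-TOPO and 1 was lower and 1 higher under CONV-TOPO, with medians of 0.14 and -0.12. The lower gene was PARP1, the break sensor, at 176.8 under CONV-TOPO and 171.4 under EE-TOPO against 269.3 scaled CPM in untreated spheroids (log2 ratios -0.60 and -0.65). Of 8 genes of the TDP2 cofactor and end joining, 4 were lower and 0 higher under each regimen, against 23.3% and 22.6% of all genes lower, with medians of -0.54 and -0.45 under EE-TOPO and CONV-TOPO. These were LIG4, the ligase of end joining (-1.73 under EE-TOPO and -1.26 under CONV-TOPO), the kinase PRKDC (-1.37, -1.06), the nuclease DCLRE1C (-1.14, -0.65) and ZNF451, the SUMO ligase that works with TDP2 (-0.82, -0.65). The other 4, which include the Ku genes XRCC5 and XRCC6, did not pass 1.5-fold. Of these, all but NHEJ1 had shorter transcripts than each of the 4 lower genes. The day-7 values of these lists carry the trend on gene structure described below, which was not removed from them.

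Nucleases and a protease offer routes around the phosphodiesterases, and of 10 such genes 5 were lower and 0 higher on day 7 of EE-TOPO and 3 lower and 0 higher on day 7 of CONV-TOPO, against 23.3% and 22.6% of all genes lower. The count under CONV-TOPO is near that background. Those lower under both were RAD50 (-1.08 under EE-TOPO, -0.69 under CONV-TOPO) and NBN (-0.63, -0.59) of the MRE11 complex, and SLX4, a scaffold of nucleases (-0.68, -0.82). Named after their values were seen, the other 2 under EE-TOPO were RBBP8 (-0.78) and the nuclease ERCC4 (-0.67). Of 6 genes for ubiquitin and SUMO enzymes that act on topoisomerases and for TOPBP1, 2 were lower and 2 higher under EE-TOPO and 3 lower and 2 higher under CONV-TOPO, against 23.3% lower and 20.1% higher of all genes under EE-TOPO and 22.6% and 18.9% under CONV-TOPO. TOPORS, a ligase named for binding TOP1 (-0.85, -0.86), and TOPBP1, a checkpoint protein named for binding TOP2B (-1.25, -1.17), were lower. PIAS4, a SUMO ligase (0.91, 1.03), was among the higher genes. PIAS1, named after its value was seen, was at -0.58 under EE-TOPO and -0.59 under CONV-TOPO and was the further gene lower under the latter. The day-7 counts of the nuclease and ligase lists carry the trend on gene structure as well. On day 3, 0 genes of these 4 lists passed 1.5-fold under either regimen against untreated. The day-3 shares of all genes were also low, at 7.18% higher and 4.43% lower under EE-TOPO and 4.17% and 2.85% under CONV-TOPO.

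**Figure D5:**
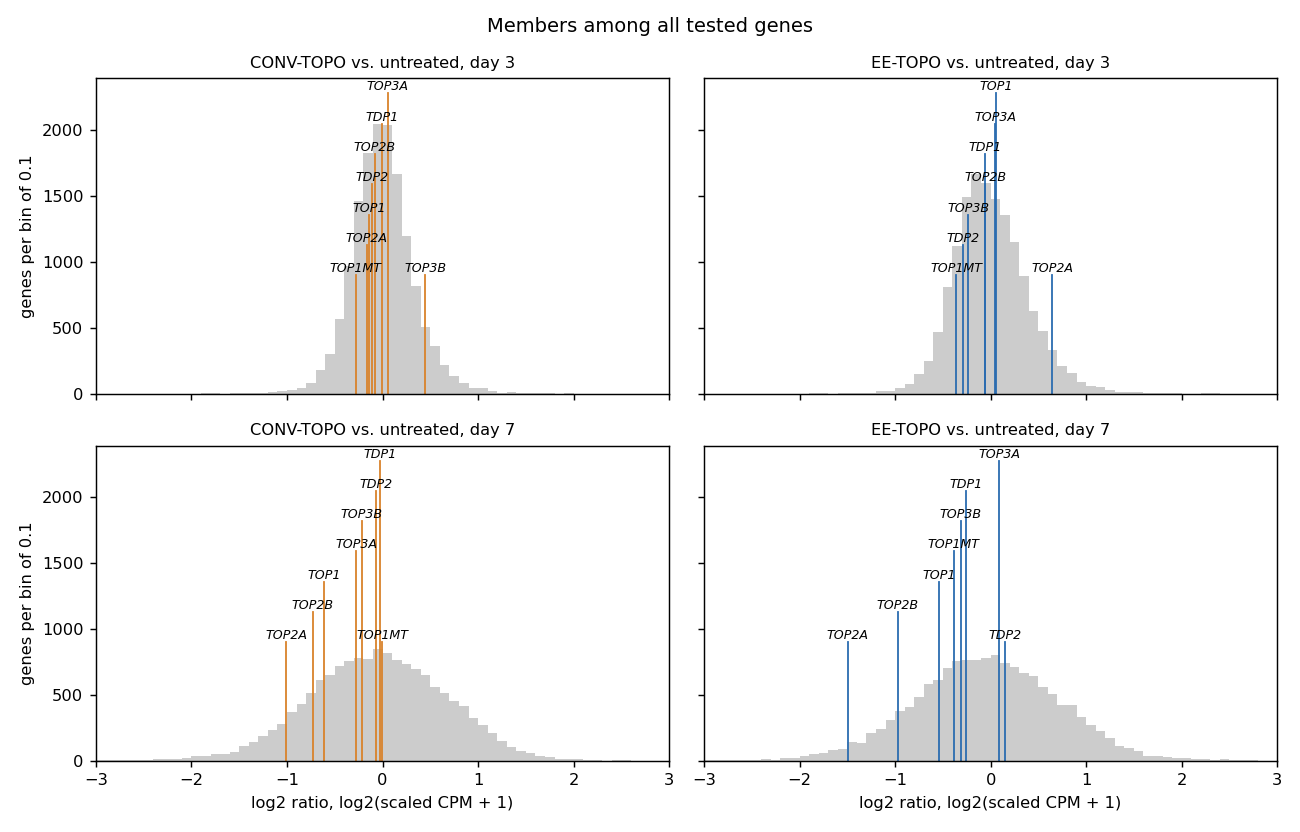
Histograms of the log2 ratio of scaled CPM + 1 for all tested genes (grey, genes per bin of 0.1) in each treated library against the untreated library of its day, with the 8 genes as vertical lines whose heights only separate the names. The day-7 histograms are wider than the day-3 ones, and on day 7 TOP2A lies furthest to the left of the 8 genes, at -1.50 under EE-TOPO and -1.01 under CONV-TOPO.

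Compared between genes, levels per kilobase of transcript put TOP1 first in every library, from 62.1 scaled CPM per kilobase in untreated day 0 down to 32.1 in CONV-TOPO day 7. In untreated day 0 it was followed by TOP1MT (26.7), TOP2B (24.0), TDP2 (22.7), TOP2A (16.3), TDP1 (7.30), TOP3B (7.17) and TOP3A (4.78). In that order TOP2B and TDP2, and TDP1 and TOP3B, did not differ beyond their counting intervals. In EE-TOPO day 7 the order was TOP1 (33.8), TDP2 (19.9), TOP1MT (19.4), TOP2B (12.5), TOP3B (7.30), TDP1 (6.65), TOP2A (6.21) and TOP3A (5.34). There TDP2 could not be told from TOP1MT, and each of the last 4 genes could not be told from its neighbour. TOP2A thus stood above TDP1 and TOP3B in untreated day 0 and beside them in EE-TOPO day 7.

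Over the 7 libraries, which share 1 scaling, the genes most like the others among 11323 genes with a mean of at least 5 scaled CPM were as follows. TOP1 was most like TXNRD1, YWHAG and LRPPRC (r = 0.992, 0.992 and 0.991), and TOP1MT like CBX3 and SEMA6B (0.980 and 0.976). TOP3A was most like ZNF561, TTI1 and DPF3 (0.992, 0.989 and 0.981), and TOP3B like SEMA6C, GAS8 and ZCCHC9 (0.969, 0.963 and 0.95). TDP1 was most like MANSC1, KCNK12 and NOX5 (0.980, 0.965 and 0.960), and TDP2 like SUPT5H, GPN1 and SENP3 (0.95, 0.941 and 0.94). With 7 libraries and so many genes, high values of r arise for any gene, and they describe these libraries only.

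Day-7 ratios varied with gene structure across the whole table, in both regimens. Over 14170 annotated genes the rank correlation of the log2 ratio with transcript length was -0.52 under EE-TOPO and -0.56 under CONV-TOPO on day 7, and 0.42 and 0.24 on day 3. With gene span it was -0.46 and -0.46 on day 7, and 0.34 and 0.21 on day 3. Genes are not independent replicates, so these describe the libraries. Between untreated libraries the correlation with transcript length was 0.05 to 0.34.

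After subtraction of a linear trend on gene span, length of the transcript and GC content, the day-7 log2 ratio of TOP1 went from -0.54 to -0.18 under EE-TOPO and from -0.61 to -0.28 under CONV-TOPO. That of TOP2A, whose transcript is 5695 bases long, went from -1.50 to -1.01 and from -1.01 to -0.52. That of TOP2B, whose transcript is 5814 bases, went from -0.97 to -0.49 and from -0.73 to -0.26. TOP1MT, with 1942 bases, went the other way, from -0.39 to -0.69 and from -0.0016 to -0.32. TOP3B, with 2834 bases, went from -0.32 to -0.58 and from -0.22 to -0.48. It then lay below TOP1 and TOP2B under both regimens. Of the 8 genes only TDP1 turned sign, from -0.26 to 0.0032 and from -0.02 to 0.22. On day 7 of EE-TOPO TOP2A and TOP1MT then were the 2 genes past 1.5-fold. On day 7 of CONV-TOPO 0 of the 8 were past it. The gene lists were counted without removal of this trend, and the shares over all genes take no account of transcript length. What in the libraries moved with transcript length was not tested.

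Scaling by library totals in place of TMM put the median of all tested genes on day 7 at -0.24 under EE-TOPO and -0.26 under CONV-TOPO, against -0.05 in each with TMM. On library totals TOP1 was at -0.76 and -0.86, TOP2A at -1.71 and -1.26 and TOP2B at -1.19 and -0.98. A change of scaling moves the log2 ratios of all genes and their median by nearly the same amount. The position of TOP1, TOP2A and TOP2B against that median is therefore not tested by it.

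Across days 3 and 7 the only error is how far a treatment's effect varied between the 2 days, and by limma on 6 libraries with Benjamini-Hochberg adjustment 0 of the 14731 genes, 0%, passed an adjusted p of 0.05 in each of 4 comparisons. These set EE-TOPO against untreated (525 genes at an unadjusted p under 0.05), CONV-TOPO against untreated (254), EE-TOPO against CONV-TOPO (129) and both regimens against untreated (530). Fitted to the libraries of the treatments compared alone, limma called 32, 9 and 83 genes in the first 3, none of them 1 of the 8. These smaller fits left fewer residual degrees of freedom than the 2 of the main fit, to which the next values belong. The log2 fold change of TOP2B over both days was -0.51 (SE 0.29) under EE-TOPO and -0.41 (SE 0.29) under CONV-TOPO, with limma adjusted p of 0.907 and 0.914. That of TOP2A was -0.42 (SE 0.49) and -0.59 (SE 0.49), and that of TOP1 was -0.24 (SE 0.25) and -0.37 (SE 0.25). For TDP1 the limma estimate was -0.16 under EE-TOPO, with a 95% interval from -0.75 to 0.43, and -0.01 under CONV-TOPO, from -0.60 to 0.58. The limma adjusted p of the 8 genes ran from 0.907 to 0.963 and from 0.914 to 0.991 against untreated, and was 1.00 between the regimens. No difference in the 8 genes passed this test against the variation between days, and a p that misses the threshold does not show that levels were alike.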

How the data were processed

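The submitters' processing notes name Partek and the hg38 build, and the study's methods describe a TruSeq RNA v2 kit, 150-base paired reads, a minimum RNA integrity and alignment with STAR. The authors deposited CPM per gene (with 0.0001 added, which was subtracted here) in 1 table of 7 libraries, each summing to 1000000. Raw counts were not used here: low values came out as whole reads (within 0.02, up to 20 reads) for 89.0% to 90.2%, too few for a count test. Depth was taken from these steps.

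CPM was scaled by TMM (trims of 30% and 5%). The filter of 0.565 CPM is 10 reads at the median depth of the 6 libraries in the fit, and was to be met in at least 2 of them. Genes that passed entered a fit by limma 3.58.1 (R 4.3.3) of log2(scaled CPM + 1) on treatment and day, with 2 residual degrees of freedom. On simulated data for EE-TOPO against untreated with 14731 genes, 200 of them changed 4-fold, it recovered 100%, 100% and 91% at a noise SD of 0.1, 0.2 and 0.4, with 13, 5 and 6 false calls. Ratios of 2 libraries carry exact conditional binomial 95% intervals of estimated reads, and levels Poisson ones. Transcript lengths are of the GENCODE canonical transcript. TOP1P1 was aligned with blastn 2.17.0. List genes were named where they passed 1.5-fold in the same direction in both regimens on 1 day, otherwise the highest and lowest means, and similar genes by the top 3 Pearson correlations; a few genes that these rules name are not reported here. The genes and lists were chosen with earlier results of these data known. Other scalings, pseudocount, filter, baseline, trend removal and libraries were tried. The libraries are labelled by treatment and day, and p-values measure only the spread between these samples.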

Additional observations from a re-analysis of the deposited data

Results flagged for a closer look

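The difference between the regimens had opposite directions on days 3 and 7 for 2 of the 8 genes, with counting intervals that excluded equality on both days. For TOP2A EE-TOPO differed from CONV-TOPO by 0.81 on the log2 scale on day 3 and by -0.49 on day 7, a change of -1.30. For TDP2 the log2 differences were -0.17 and 0.22, a change of 0.39. Each day has 1 library per regimen, so the difference between days was not tested.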

How the results depend on the processing

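No paired analysis was possible because each treatment and day has 1 library and replicate numbers only name it, beyond the pairing by day that the day term of the limma fit already makes. The count of 0 genes past the limma threshold held under other scalings, pseudocount, filter and trend removal, but with only the libraries of the treatments compared, 32 genes passed for EE-TOPO against untreated, 9 for CONV-TOPO against untreated and 83 for EE-TOPO against CONV-TOPO. Such smaller fits left fewer residual degrees of freedom than the 2 of the main fit. Of the counts of the 8 genes past 1.5-fold, that of EE-TOPO day 3 went from 1 to 0 with the trend removed and to 0 against the mean of the untreated libraries, where TOP2A turned to -0.050 from 0.65. That of EE-TOPO day 7 went from 2 to 4 on library totals, that of CONV-TOPO day 3 from 0 to 1 against the mean of the untreated libraries, and that of CONV-TOPO day 7 from 3 to 0 with the trend removed and to 2 with median-of-ratios factors, where TOP1 was at -0.57. Across days, small log2 fold changes turned sign: TOP3A under EE-TOPO to -0.0059 from 0.07 on library totals, and TDP1 under CONV-TOPO to 0.0080 from -0.01 with median-of-ratios factors. With the trend removed, TDP2 under EE-TOPO turned to 0.0065 from -0.07, TOP3B under CONV-TOPO to -0.039 from 0.11, TDP1 under CONV-TOPO to 0.093, and TOP3A and TDP1 under both regimens to 0.044 from -0.02 and 0.013 from -0.09. The cause of these changes was not tested. At 15030000 to 22480000 reads the genes had counting intervals of a few percent to about 10% of the level, and the spread between replicate libraries could not be measured.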
